A study of Mus musculus with 10 samples.

Results

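The cytosolic ribosomal protein genes were followed across diploid mouse embryonic stem (ES) cells and 4 ES cell lines with an extra chromosome. Members were taken by name from the array annotation: all probes whose gene symbol had the form of a numbered Rpl or Rps gene, with or without a closing a, x, y or l, together with Rplp0, Rplp1, Rplp2 and Rpsa. This gave 183 probes and 80 genes, of which 79 genes were tested out of 28192 tested in all: 31 of the small (40S) subunit and 48 of the large (60S) subunit. The only probe of Rpl19, a chromosome 11 gene, had a flagged spot and was left out. All 79 tested members were well above background on all 10 arrays, so no member passed through 1 group alone. The name rule also took in 4 paralogues, Rpl3l, Rpl10l, Rpl39l and Rps27l, which were kept and are described apart.

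The ribosome is built from ribosomal RNA and a single copy of nearly every ribosomal protein, so cells need these proteins in matched amounts. Their mRNAs are among the most abundant in growing cells and typically begin with a run of pyrimidines that couples their translation to growth signals through mTOR. Ribosomal proteins made in excess over their partners are known to be degraded in yeast and in human cells, and the genome holds many processed pseudogenes of this family. A trisomic chromosome adds a gene copy for the members it carries and for none of the others.

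Ts6, Ts8, Ts11 and Ts15 were each trisomic (3 copies) for the chromosome in their name, and the diploid cells (WT) were AB1, a male line. Per the labels, Ts6 was sampled at passages 9 and 18, Ts8 at 10 and 13, Ts11 at 8 and 11, Ts15 at 11 and 14, and WT at 18 and 20. The trisomic lines were labelled with the strain 129 S7/SvEvBrd and with no sex or parent line, so origin and the extra chromosome cannot be told apart in a difference from WT. All groups had been grown on irradiated SNL76/7 feeder cells, which were depleted by letting them settle. Each group had 2 arrays from separate passages, and this number limits the precision of every value. WT, Ts6, Ts8 and Ts11 shared slide 1, and both Ts15 arrays were on slide 2, so Ts15 and slide cannot be told apart. Per array, 71.4% to 80.2% of the spots that were no controls had signal well above background, and 0 were saturated. All 10 ES cell markers, Pou5f1 and Nanog among them, were well above background on every array. Their summed level lay between 7.21 and 7.48 in the trisomic lines, against 7.45 and 7.36 in WT, as log2 of signal relative to the 75th percentile of the array. The 13 tested fibroblast markers were also detected (10 of 14 listed on every array), with a summed level of 4.78 to 5.56 in the trisomic lines, against 5.18 and 5.29 in WT, and Col5a2 (-1.20) and Pdgfra (-0.70) fell in Ts6. Markers of differentiated germ layers stood at 3.60 and 3.12 in Ts15 and at 1.43 to 2.23 in the 3 other lines, against 2.09 and 1.97 in WT. At a limma adjusted p under 0.05, 5 of 9 tested ones rose in Ts15, among them Sox17 (2.48) and Gata4 (1.37), and 0 fell. The shares of all genes there were 2.58% and 4.86%. At an unadjusted p under 0.05 in limma, 5 were higher and 2 lower in Ts15. By the adjusted p, 1 rose and 1 fell in Ts6, 0 rose and 2 fell in Ts8, and 0 passed in Ts11. Beside these, the shares of all genes were 4.44% and 4.6% (Ts6), 2.06% and 1.43% (Ts8) and 4.03% and 4.1% (Ts11). The median differences of the 9 markers from WT were -0.20 (Ts6), -0.20 (Ts8), -0.65 (Ts11) and 1.32 (Ts15). The part of other cell types in the values below was not tested.

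Members with an extra gene copy stood slightly above the rest of the family in their own line, and no single one passed the test. Levels are given in log2, as the signal processed by the scanner relative to the array's 75th percentile. Each line was compared with the mean of the other 4 groups with limma, and a gene was called at a Benjamini-Hochberg adjusted p under 0.05 over all 28192 genes. Of the 13 tested members with their probe on a trisomic chromosome, 0 were called in their own line, whereas 25.8% of the 6055 genes of the 4 chromosomes were called in theirs (23.3% higher). At an unadjusted p under 0.05, 3 of 13 passed in the same limma fit, namely Rpl3, Rpl8 and Rpl30, against 47.3% of the 6055 genes. The 13 differences lay between -0.10 and 0.31 with a median of 0.04, and the other genes of the same chromosomes had medians of 0.18 (1455 genes, chromosome 6), 0.29 (1496, chromosome 8), 0.20 (1990, chromosome 11) and 0.25 (1101, chromosome 15). A ratio of 3 to 2 copies would be 0.58 on this scale, which the medians of those other genes did not reach either. The upper bound of the 95% interval lay below 0.58 for 12 of 13 members, with Rpl8 as the exception at 0.59. The interval included 0 for 10 of 13 members. For all members but Rpl27 and Rps27a it also included the median of the other genes of the chromosome, so these intervals do not separate the members from those genes.

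Set against the rest of the family, the 13 members all stood on the same side. Each had a larger difference in its own line than the median of the 79 members in that line, by 0.04 to 0.18 with a median of 0.13, and the same genes were above the family median in 17 of 39 values of the 3 other trisomic lines. Among members on other chromosomes the share was 126 of 264 values (47.7%). That share follows from the counts above and the definition of a median, so it is no separate comparison. The count was 13 of 13 under quantile normalization, normexp background correction, the authors' deposited table, the mean of all probes of a gene, and passage as a covariate, and also when a line was compared with WT alone. It was 12 of 13 without Ts11 replicate 1, where the lowest value was -0.01, and 12 of 13 without Ts15 replicate 1, where it was -0.02. Beside that median of 0.13, the other genes of the chromosomes exceeded the genes elsewhere by 0.21, 0.26, 0.20 and 0.25 in their medians for chromosomes 6, 8, 11 and 15, and the difference between these medians was not tested. The sign of a single difference depended on the scaling: 10 of 13 were positive on the 75th percentile scale, 9 of 13 with normexp, and 12 of 13 under quantile normalization and in the authors' deposited table. In the deposited table the medians of all genes in these comparisons were -0.06 (Ts6), 0.02 (Ts8), 0.08 (Ts11) and -0.00099 (Ts15). Against WT alone 9 of 13 were positive on the 75th percentile scale. This comparison within the family was added after the data had been seen, and no test was made over the members.

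**Figure D1:**
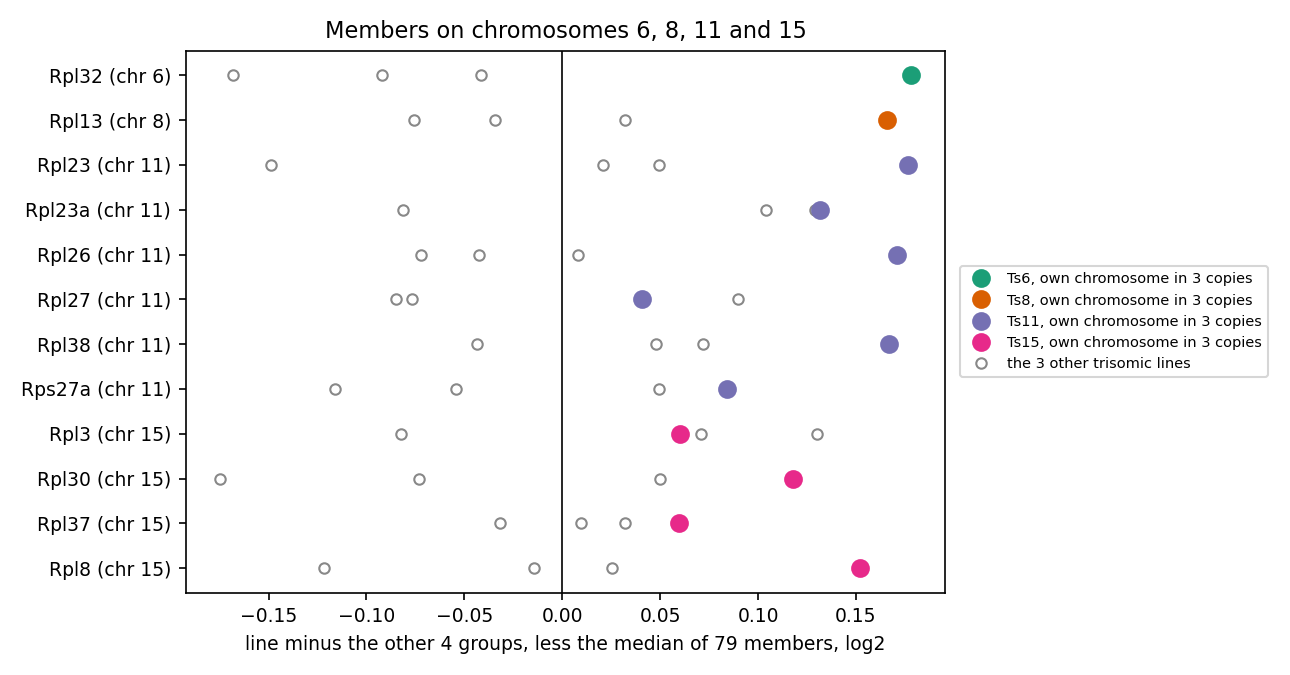
Difference of each line from the other 4 groups (log2), less the median of the 79 ribosomal protein genes in the same comparison, for 12 members on a trisomic chromosome. Filled points are the line in which the gene's chromosome has 3 copies, and open points are the 3 other trisomic lines; all 12 filled points lie right of 0, between 0.04 and 0.18, and 16 of 36 open points do.

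Chromosome 6 carried 1 tested member, Rpl32, a 60S protein, with its probe at chr6:115755538-115755597 (mm9, as for all probe positions). Rpl32 had levels of 5.19 and 5.03 in Ts6, and 4.72, 4.86 and 5.40 as the lowest, median and highest of the other 8 arrays. Both Ts6 arrays were above that median and below the highest array, so the groups overlapped, and the difference was 0.17 (SE 0.15, limma adjusted p = 0.48). Against WT alone the difference of Rpl32 was -0.02 (SE 0.18).

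On chromosome 8, the 60S protein Rpl13 had its probe at chr8:125627816-125628964, a span longer than the 60 bases of the probe. Rpl13 had levels of 5.14 and 5.00 in Ts8, against 4.63, 4.99 and 5.31 (lowest, median, highest of the other 8 arrays), a difference of 0.08 (SE 0.14). Both Ts8 arrays lay inside the range of the others, while the family median in Ts8 was -0.08. Rpl13 ranked 4th among the 79 members in Ts8.

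Chromosome 11 carried 6 tested members, with probes at chr11:114533586-114533645 (Rpl38), chr11:68716730-68716789 (Rpl26), chr11:97639579-97639638 (Rpl23), chr11:77994946-77995005 (Rpl23a), chr11:101304045-101304104 (Rpl27) and chr11:29445914-29445973 (Rps27a). Rpl38 is a 60S protein that in the mouse is known for its role in patterning the axial skeleton. Rpl38 had levels of 5.03 and 4.97 in Ts11, against 4.75, 4.97 and 5.14, a difference of 0.03 (SE 0.09). Rpl26, which in human cells also binds p53 mRNA, had 5.01 and 4.95 in Ts11, against 4.74, 4.96 and 5.19, a difference of 0.03 (SE 0.12). Rpl23, which in human cells can bind the p53 regulator MDM2, had 4.99 and 4.85 in Ts11, against 4.69, 4.86 and 5.09, a difference of 0.04 (SE 0.10). For these genes the Ts11 arrays sat near the middle of the others, at a family median of -0.14 in Ts11, and they ranked 7th, 5th and 4th among the 79 members. Rpl23a, the 60S protein next to the exit of the peptide tunnel, had 5.08 and 4.78 in Ts11, against 4.32, 5.03 and 5.21, a difference of -0.01 (SE 0.20). Its lowest value came from WT replicate 2, and its highest, 5.21, from WT replicate 1. Rpl27, another 60S protein, had 4.78 and 4.57 in Ts11, against 4.60, 4.78 and 4.94, a difference of -0.10 (SE 0.10). Rps27a, made as a fusion of ubiquitin to a 40S protein, had 4.81 and 4.68 in Ts11, against 4.69, 4.76 and 5.01, a difference of -0.06 (SE 0.10). Rpl27 was the member closest to the family median, with an excess of 0.04 and rank 25 of 79.

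Chromosome 15 carried 4 tested members, with probes at chr15:76736671-76736730 (Rpl8), chr15:34371013-34371072 (Rpl30), chr15:79908489-79908772 (Rpl3) and chr15:5068594-5068654 (Rpl37). Their differences were the highest of the 13, in a line where the family median was also highest (0.16). Rpl8, a 60S protein that contacts the ribosomal RNA near the peptidyl transferase centre, had levels of 5.32 and 4.90 in Ts15, against 4.65, 4.83 and 4.94 in the other 8 arrays. Ts15 replicate 1 was above all others and replicate 2 inside their range, and the difference was 0.31 (SE 0.12, limma adjusted p = 0.13). Rpl30, whose yeast counterpart regulates the splicing of its own transcript, had 4.96 and 4.82 in Ts15, against 4.49, 4.57 and 4.83. The difference was 0.27 (SE 0.08, limma adjusted p = 0.055), and with the mean of its 3 probes it was 0.29 and was called. That mean takes in a probe, described below, on which both Ts6 arrays were the lowest of all. Against WT alone the difference of Rpl30 was 0.09 (SE 0.10, limma adjusted p = 0.61). The differences from WT were 0.22 for Rpl8, 0.26 for Rpl3 and 0.17 for Rpl37, and none was called. Rpl3, which reaches towards the peptidyl transferase centre, had 4.23 and 3.996 in Ts15, against 3.83, 3.89 and 4.01, a difference of 0.22 (SE 0.09). Rpl37, a small 60S protein, had 5.40 and 5.08 in Ts15, against 4.90, 5.00 and 5.25, a difference of 0.21 (SE 0.12). For Rpl30, Rpl3 and Rpl37 too, Ts15 replicate 1 was above all others and replicate 2 was not. No member of the 13 had both own-line arrays above all of the other 8, against 28.7% of the 6055 genes of the 4 chromosomes. Under quantile normalization the 4 differences from the other 4 groups were 0.11 (Rpl8), 0.11 (Rpl30), 0.08 (Rpl3) and -0.0042 (Rpl37). The excess of these genes over the family median in Ts15 was 0.06 to 0.15 on the 75th percentile scale, and 0.0091 (Rpl37) to 0.13 (Rpl8) under quantile normalization. Without Ts15 replicate 1 the 4 differences were 0.097 (Rpl8), 0.20 (Rpl30), 0.0998 (Rpl3) and 0.051 (Rpl37).

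Start-site sequences are shown for tested members on the trisomic chromosomes that had a RefSeq promoter entry. The paralogues Rpl3l and Rpl39l are set beside them, since these paralogues departed most from the family. Each runs 5′ to 3′ on the transcribed strand from 50 bases before to 20 bases after the annotated start (RefSeq, build GRCm38.p6). Capitals mark CGGAAG or its reverse complement CTTCCG, and CTTTC or CTCTT within 20 bases of the start.
Rpl13 (chr8:123102300-123102369, plus strand): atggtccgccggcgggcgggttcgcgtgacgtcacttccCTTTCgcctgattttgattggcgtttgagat
Rpl38 (chr11:114668530-114668599, plus strand): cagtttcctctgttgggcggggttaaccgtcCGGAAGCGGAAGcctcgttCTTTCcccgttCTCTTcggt
Rpl26 (chr11:68901516-68901585, plus strand): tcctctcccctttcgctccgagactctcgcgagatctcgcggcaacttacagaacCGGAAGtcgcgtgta
Rpl23 (chr11:97782420-97782489, minus strand): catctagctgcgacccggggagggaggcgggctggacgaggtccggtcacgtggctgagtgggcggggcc
Rpl27 (chr11:101442195-101442264, plus strand): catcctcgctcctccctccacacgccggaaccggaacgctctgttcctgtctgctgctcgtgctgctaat
Rpl37 (chr15:5116563-5116632, plus strand): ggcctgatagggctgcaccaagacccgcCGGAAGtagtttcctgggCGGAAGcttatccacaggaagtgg
Rpl3l (chr17:24727776-24727845, plus strand): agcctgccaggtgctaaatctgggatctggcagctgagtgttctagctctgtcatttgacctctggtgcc
Rpl39l (chr16:10170178-10170247, plus strand): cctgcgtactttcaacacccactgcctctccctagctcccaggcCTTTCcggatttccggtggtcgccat
Promoter entries were matched for 60 of the 80 members. Rpl32, Rpl23a, Rps27a, Rpl8, Rpl30 and Rpl3 were among those that had none.

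Over the whole 300-base promoter window (250 before and 50 after the start, both strands), CGGAAG occurred in 42 of 60 members (70%) and in 18.8% of the 27025 genes with an entry. CTTTC or CTCTT on the transcribed strand within 20 bases of the start occurred in 25 of 60 members (41.7%) and in 11.8% of all genes. GATGGC on either strand occurred in 14 of 60 members (23.3%) and in 15.9% of all genes. The motifs were searched independently and may overlap. Of the paralogues shown, Rpl39l held CGGAAG and CTTTC or CTCTT in these windows, and Rpl3l held none of the motifs. These are matches of letters in the annotated windows and do not show binding.

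Some probes of the family could not be tied to 1 locus, which bears on how the extra copy was read. Per the file headers, probes were placed on the mouse genome mm9, and 24 of 183 member probes, from 14 genes, were placed on another chromosome than the RefSeq gene. Of these 24 probes, 13 ended in 5 or more A, the letters of a polyadenylated transcript, as did 3 of 157 probes placed on the chromosome of their gene. The last 30 bases of 4 pairs of 60-base probes show how little separates them, with capitals for bases outside the longest run that the pair shares. The Rpl38, Rpl24 and Rpl7 pairs each hold a probe placed on a trisomic chromosome, and the Rpl14 pair belongs to a member that was called in Ts8. The Rpl14 probe shown for chromosome 9 is not the tested chromosome 9 probe described below. That tested probe shared no more than 6 bases in a row with the probe on chromosome 7.
Rpl38 probe on chromosome 6 (chr6:52296677-52296736): gactattaaaaaccctgaaaagtCAAAAAA
Rpl38 probe on chromosome 11 (chr11:114533586-114533645): gcgtgtgactattaaaaaccctgaaaagtG
Rpl24 probe on chromosome 11 (chr11:58322244-58322303): aaataaagctctatctttaactctAAAAAA
Rpl24 probe on chromosome 16 (chr16:55971488-55971547): agttggaaataaagctctatctttaactct
Rpl7 probe on chromosome 11 (chr11:29452014-29452073): taaacagtcacagcttggcaaaTTGGAAAA
Rpl7 probe on chromosome 1 (chr1:16091382-16091438): gttaataaacagtcacagcttggcaaaAAA
Rpl14 probe on chromosome 7 (chr7:52580970-52581029): ataaaAGTTCTTTTTGACGGTGGTAAAAAA
Rpl14 probe on chromosome 9 (chr9:120483487-120483546): cacagaataataaaGGTTCTTTTTGACGGT
The pairs shared 53 (Rpl38), 54 (Rpl24), 47 (Rpl7) and 35 (Rpl14) bases in a row. Whether these spots read the gene, a near-identical copy or both was not tested, since the probes were not aligned to a genome.

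Probe by probe, in a fit over all 43056 tested probes that was added after the data had been seen, 25 probes of 13 genes had both the probe and the gene on the trisomic chromosome. Their differences from the other 4 groups had a median of 0.07, and 24 of 25 were above the median of the family's probes in that line, by a median of 0.13. One of the 25 was called, an Rpl30 probe (chr15:34372831-34372890) with 0.40 in Ts15 (SE 0.08, limma adjusted p = 0.018), where 16.2% of all probes were called (12.4% in Ts6, 11% in Ts8 and 7.42% in Ts11). Against WT alone this probe differed by 0.03 in Ts15 (SE 0.10, adjusted p = 0.91), and the lowest of the other 8 arrays were those of Ts6, at 0.67 and 0.78. In 5 probes the probe alone was placed on the trisomic chromosome while the gene lay elsewhere, among them probes for Rpl38 in Ts6 and for Rpl36, Rpl24 and Rpl7 in Ts11. These differed by -0.15 to -0.0029 (median -0.01), with a median excess of 0.04. In 4 probes the gene alone lay there, and their median difference was 0.07 with a median excess of 0.09. None of these 9 values was called, with limma adjusted p-values of 0.34 or above. The difference between the probe classes was not tested.

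The family medians lay close together, but on the 75th percentile scale most members moved the same way within a line. Lower than WT were 59 (Ts6), 65 (Ts8), 68 (Ts11) and 19 (Ts15) of 79 members. Among all 28192 genes these counts were 14591, 12762, 13990 and 14317. Of 79 members, 77 were lower in Ts8 than in Ts15 and 77 in Ts11 than in Ts15, where line and slide cannot be told apart. Equality of the family level between groups was not tested. The median level of the 79 members was 4.84 and 4.74 on the Ts6 arrays, 4.74 and 4.75 on those of Ts8, 4.78 and 4.63 on those of Ts11 and 4.99 and 4.84 on those of Ts15, against 4.90 and 4.78 on those of WT. The arrays of every line but Ts15 reached no higher than WT replicate 1, Ts15 and WT overlapped, and the 2 WT arrays differed by 0.13. Against WT the median difference was -0.07 (Ts6), -0.12 (Ts8), -0.18 (Ts11) and 0.07 (Ts15), beside medians of all genes of -0.01, 0.04, 0.0032 and -0.0055. These signs depended on the scaling: under quantile normalization the family medians were -0.02, 0.01, 0.01 and 0.0019, and in the authors' deposited table -0.04, 0.04, 0.09 and 0.03. The medians of all genes were -0.0058, 0.0086, 0.0072 and -0.0095 under quantile normalization. In the deposited table they were -0.02, 0.04, 0.09 and 0.02, so the family medians there lay close to those of all genes. Single arrays moved the family medians as well. Without WT replicate 1 the medians were -0.03 (Ts6), -0.09 (Ts8), -0.11 (Ts11) and 0.11 (Ts15), and without WT replicate 2 they were -0.16, -0.16, -0.22 and -0.02. The Ts6 median was -0.10 without its replicate 1 and -0.05 without its replicate 2, that of Ts8 -0.16 and -0.13, that of Ts11 -0.23 and -0.13, and that of Ts15 -0.0040 and 0.16. The fibroblast markers had median differences from WT of -0.41 (Ts6), -0.27 (Ts8), -0.23 (Ts11) and 0.19 (Ts15), with the same sign as the family medians on the 75th percentile scale. Their summed level was 4.78 and 5.13 on the Ts6 arrays, 5.13 and 4.90 on those of Ts8, 5.28 and 5.00 on those of Ts11 and 5.37 and 5.56 on those of Ts15, against 5.18 and 5.29 on those of WT. Both Ts15 arrays were above both WT arrays, and the part of fibroblast RNA in the family medians was not tested. The 40S medians were -0.07, -0.12, -0.17 and 0.07, and the 60S medians -0.07, -0.15, -0.20 and 0.07, in the same order of lines. Across the 10 arrays the members followed the family profile with a median Pearson correlation of 0.71 (range -0.31 to 0.92, 79 members), a description in which all members share the scaling of each array.

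**Figure D2:**
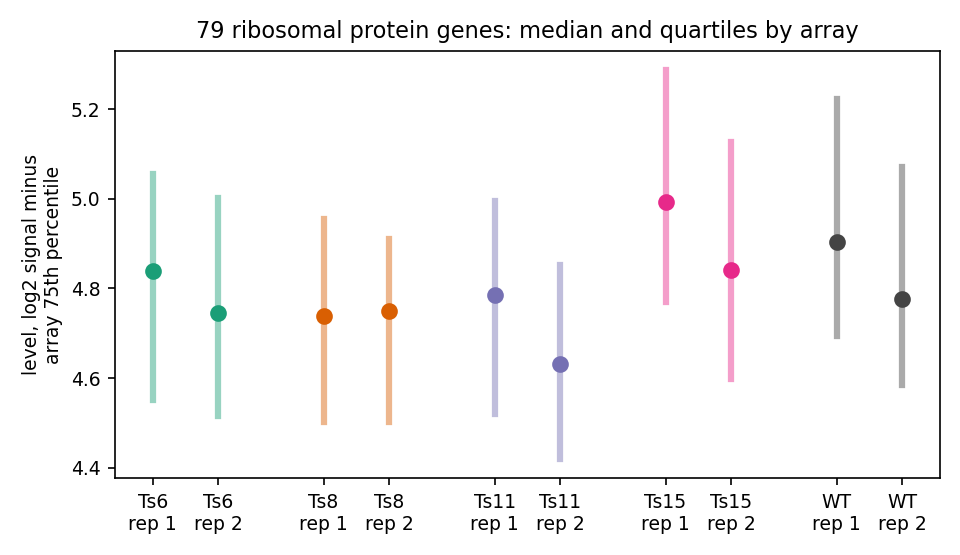
Median (point) and quartiles (bar) of the levels of the 79 ribosomal protein genes on each array, as log2 of signal relative to the array's 75th percentile. The medians lie between 4.63 and 4.99, and the 2 arrays of a group differ by up to 0.15.

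Few single members were called against WT. In Ts6, 1 of 79 was called and was higher, against 9.04% of all genes tested (4.44% higher, 4.6% lower). In Ts8, 1 of 79 was called higher and 1 lower, against 3.49% of all genes (2.06% higher, 1.43% lower). In Ts11, 1 of 79 was called and was lower, against 8.13% of all genes (4.03% higher, 4.1% lower). At an unadjusted p under 0.05 the counts higher and lower were 1 and 7 in Ts6 (12.1% and 12.8% of all genes), 1 and 10 in Ts8 (13.9% and 10.8%), and 0 and 15 in Ts11 (12.6% and 12.8%). In Ts15, 0 of 79 were called, against 7.43% of all genes (2.58% higher, 4.86% lower), and 0 passed an unadjusted p under 0.05 in limma, against 10.4% of all genes higher and 14% lower. For the mean of the 4 lines, 0 of 79 were called, against 3.85% of all genes (1.9% higher, 1.95% lower), with 1 higher and 8 lower at an unadjusted p under 0.05 in limma (11.1% and 11.5% of all genes). Because all comparisons share the 2 WT arrays, they are not independent. The median spread between the 2 arrays of a group was 0.14 per member, and the range of the 5 group means had a median of 0.29.

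**Figure D3:**
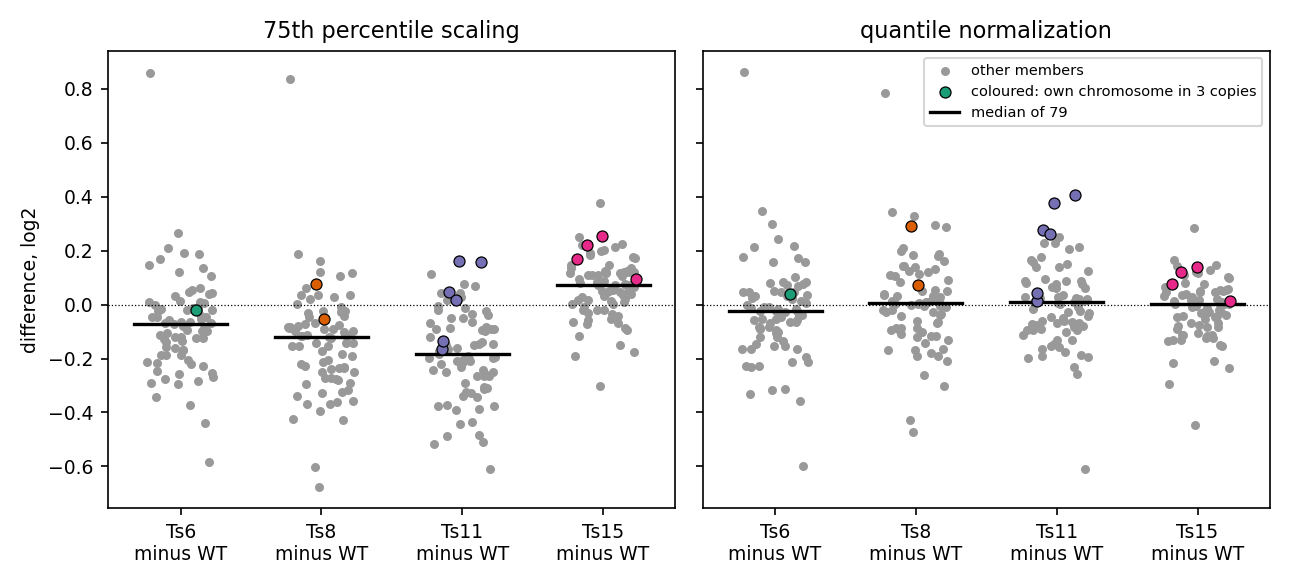
Difference of each trisomic line from WT (log2) for the 79 members, with 75th percentile scaling on the left and quantile normalization on the right. Coloured points are members whose own chromosome has 3 copies in that line and bars are medians of the 79; the Ts8 and Ts11 medians are -0.12 and -0.18 on the left and 0.01 and 0.01 on the right, and Rpl3l is the highest point in Ts6 (0.86) and Ts8 (0.84).

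Rpl3l rose in Ts6 and in Ts8. It encodes a paralogue of Rpl3 that is mainly used in heart and skeletal muscle, and its probe (chr17:24872413-24872681, mm9) was the only one on the array. Rpl3l had levels of -1.98 and -1.91 on the Ts6 arrays, -1.95 and -1.99 on those of Ts8, -2.82 and -2.57 on those of Ts11 and -2.61 and -3.00 on those of Ts15, against -2.80 and -2.81 on those of WT. All 4 arrays of Ts6 and Ts8 were above all other arrays, and Ts11 and Ts15 overlapped WT. The difference was 0.86 in Ts6 (SE 0.15, limma adjusted p = 0.014) and 0.84 in Ts8 (SE 0.15, adjusted p = 0.036), or 1.81-fold and 1.79-fold. It was 0.11 in Ts11 and 0.0036 in Ts15. The gene is on chromosome 17, which none of the lines carries in 3 copies. The Ts6 call was lost when either WT array or either Ts6 array was left out (0.83 to 0.89), and the Ts8 call when either array of WT, Ts6 or Ts8 was left out (0.82 to 0.85). With passage as a covariate the Ts6 difference was 0.87 and was not called. The Ts8 call held in 5 of 9 other settings and was lost with passage (0.85, adjusted p = 0.18), with the replicate number as a block (adjusted p = 0.052), with no filter on dim probes (adjusted p = 0.070) and with the 4 arrays of Ts8 and WT alone (adjusted p = 0.17).

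Rpl39l, the paralogue of Rpl39 used in male germ cells, had the next largest range of group means. Rpl39l had levels of 2.01 and 1.75 on the Ts6 arrays, 2.29 and 2.06 on those of Ts8, 1.57 and 2.14 on those of Ts11 and 2.72 and 2.48 on those of Ts15, against 2.48 and 2.45 on those of WT. The arrays of Ts6, Ts8 and Ts11 were all below both WT arrays, and those of Ts15 were not. The differences of -0.58 (Ts6), -0.29 (Ts8), -0.61 (Ts11) and 0.14 (Ts15) from WT, each with an SE of 0.20, were not called. The other paralogues varied less: Rpl10l, also of the male germ line, differed from WT by -0.25 to 0.0010 and Rps27l, a p53 target in human cells, by -0.24 to -0.03, and neither was called. Without the 4 paralogues the family medians against WT were -0.07, -0.12, -0.19 and 0.07 in Ts6, Ts8, Ts11 and Ts15 on the 75th percentile scale, which moved with the scaling as above.

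Rpl14, a 60S protein, fell in Ts8 by 1 of its 2 tested probes. The probe used for the gene had levels of 5.02 and 5.12 on the Ts6 arrays, 4.51 and 4.75 on those of Ts8, 4.92 and 4.77 on those of Ts11 and 5.19 and 5.23 on those of Ts15, against 5.23 and 5.24 on those of WT. The Ts8 arrays were below both WT arrays and below every array of the 3 other lines. The difference was -0.60 in Ts8 (SE 0.12, limma adjusted p = 0.043). That probe was the one placed on chromosome 7, whereas the gene lies on chromosome 9. The other tested probe, on chromosome 9 (chr9:120483689-120483748, mm9), had -0.13 in Ts8 (SE 0.12, adjusted p = 0.54) and -0.60 in Ts11 (SE 0.12, adjusted p = 0.031). The probes thus differed in the line that was called, where 2.98% (Ts8) and 6.93% (Ts11) of all probes were called. On the chromosome 7 probe both Ts11 arrays were also below both WT arrays, and Rpl14 was not called in Ts11 by that probe. The Ts8 call held in 0 of 10 fits that left out 1 array (-0.72 to -0.48), and the difference was -0.43 under quantile normalization. With the mean of its probes Rpl14 was called lower in Ts11 (-0.50, limma adjusted p = 0.028) and not in Ts8 (-0.37, adjusted p = 0.082).

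Rps16, a 40S protein near the decoding site, was called lower in Ts11 by 1 of its 3 probes. That probe had levels of 5.74 and 5.70 on the Ts6 arrays, 5.37 and 5.31 on those of Ts8, 5.26 and 5.23 on those of Ts11 and 5.62 and 5.52 on those of Ts15, against 5.90 and 5.63 on those of WT. Both Ts11 arrays were below both WT arrays, and the Ts8 arrays were only slightly above those of Ts11. The difference was -0.52 in Ts11 (SE 0.12, limma adjusted p = 0.039), and the other 2 probes had -0.13 and 0.06. The call held in 1 of 10 fits that left out 1 array (-0.65 to -0.38), namely without WT replicate 2, and the difference was -0.20 under quantile normalization and -0.11 in the authors' deposited table. With the mean of its probes Rps16 had -0.20 in Ts11 (limma adjusted p = 0.45) and was not called.

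**Figure D4:**
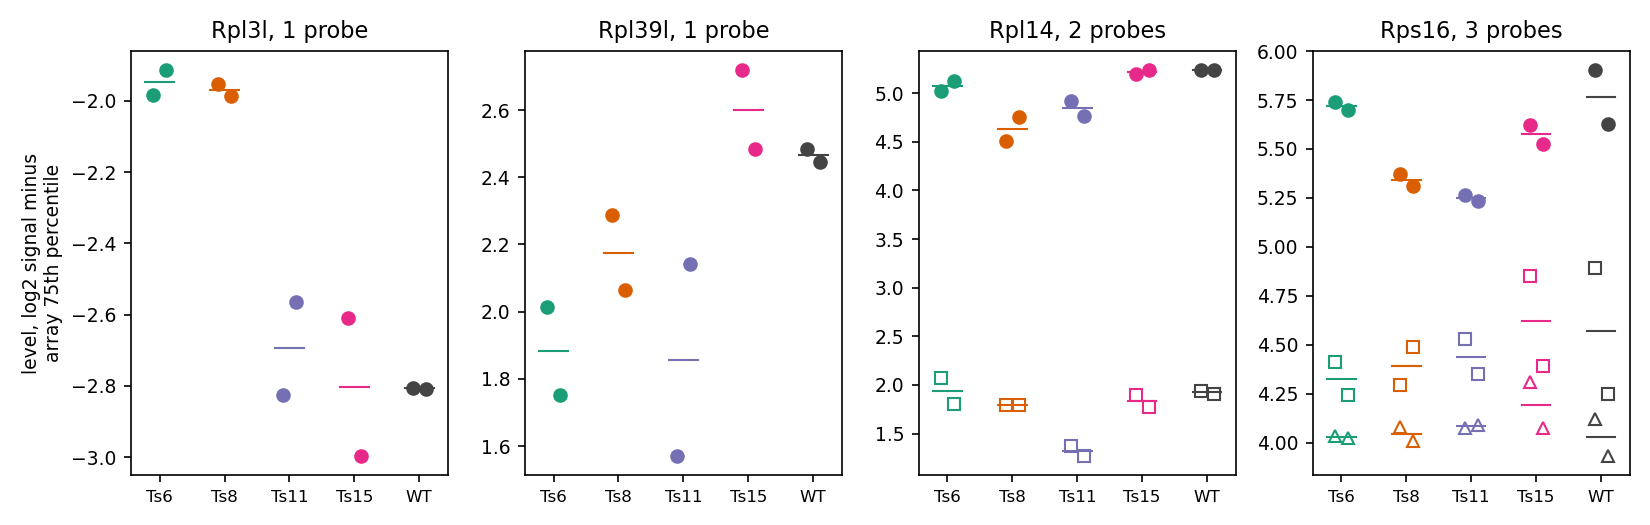
Levels on each array (points; lines are group means) of Rpl3l, Rpl39l, Rpl14 and Rps16, with the brightest probe filled and other tested probes open. Ts6 and Ts8 lie between -1.99 and -1.91 for Rpl3l and the other groups between -3.00 and -2.57, while the 2 tested Rpl14 probes differ in which line is lowest, Ts8 or Ts11.

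Rpl41 and Rps15 completed the 5 members with the widest group means. Rpl41 is the shortest ribosomal protein and Rps15 a 40S protein whose yeast counterpart is needed for export of the subunit from the nucleus. Rpl41 had levels of 5.66 and 5.64 on the Ts6 arrays, 5.27 and 5.27 on those of Ts8, 5.48 and 5.52 on those of Ts11 and 5.68 and 5.61 on those of Ts15, against 6.24 and 5.65 on those of WT. Its range rested on WT replicate 1: without WT replicate 2, Rpl41 was called lower in Ts6 (-0.59), Ts8 (-0.97) and Ts11 (-0.74), and with both WT arrays it was called in none. Rps15 had 5.78 and 5.67 on the Ts6 arrays, 5.29 and 5.60 on those of Ts8, 5.15 and 5.36 on those of Ts11 and 5.73 and 6.04 on those of Ts15, against 5.98 and 5.55 on those of WT. Its arrays overlapped WT in Ts6, Ts8 and Ts15, both Ts11 arrays were below WT, and none of its differences was called.

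The lines were also set against each other in the same fit, and Rplp0, which anchors the stalk proteins Rplp1 and Rplp2, was lower in 3 lines than in Ts15. Rplp0 had levels of 5.02 and 5.22 on the Ts6 arrays, 4.98 and 4.97 on those of Ts8, 5.00 and 4.93 on those of Ts11 and 5.49 and 5.52 on those of Ts15, against 5.37 and 5.24 on those of WT. Both Ts15 arrays were above all others, and the difference from WT was not called in any line. Rplp0 differed from Ts15 by -0.39 (Ts6), -0.53 (Ts8) and -0.54 (Ts11) on the 75th percentile scale. Under quantile normalization these were -0.22, -0.20 and -0.18, and in the authors' deposited table -0.27, -0.20 and -0.13, none of them called. Of 79 members, 1 was called between Ts6 and Ts8, 1 between Ts6 and Ts11, 4 between Ts6 and Ts15, 1 between Ts8 and Ts11, 5 between Ts8 and Ts15 and 3 between Ts11 and Ts15. The shares of all genes called were 13.7%, 7.28%, 18.2%, 7.81%, 17.2% and 15% in these comparisons. Ts15 and slide cannot be told apart in them.

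A single Rpl30 probe fell in Ts6. The probe was the one called in Ts15 above, and it had levels of 0.67 and 0.78 on the Ts6 arrays, 1.40 and 1.37 on those of Ts8, 1.23 and 1.26 on those of Ts11 and 1.59 and 1.69 on those of Ts15, against 1.63 and 1.59 on those of WT. Both Ts6 arrays were below all others, and the difference from WT was -0.89 in Ts6 (SE 0.10, limma adjusted p = 0.0030 over all probes), where 8.54% of all probes were called. The 2 other Rpl30 probes had -0.27 and -0.12 in Ts6 and were not called. Disagreement of this kind was common in the family: of 55 members with 2 or more tested probes, the probes differed in sign against WT for 25 (Ts6), 29 (Ts8), 19 (Ts11) and 30 (Ts15) of them.

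Genes that act with the ribosomal proteins were also mostly uncalled. Of 20 tested translation factors and other genes whose mRNAs share the pyrimidine start, 0 were called in any line in limma, and 0, 2, 3 and 3 passed an unadjusted p under 0.05 in Ts6, Ts8, Ts11 and Ts15. Their median differences from WT were -0.12, -0.16, -0.15 and 0.10 on the 75th percentile scale. Fau, which encodes a 40S protein as a fusion, had differences of -0.05, -0.40, -0.45 and -0.0078 in these lines. Eif4b, an initiation factor encoded on chromosome 15, had 0.44 in Ts15 (adjusted p = 0.15), and Pabpc1, the poly(A) binding protein from the same chromosome, had 0.20. Of 50 factors of ribosomal RNA synthesis and ribosome assembly, 1 fell in each of Ts6, Ts11 and Ts15 and 0 were called in Ts8. At an unadjusted p under 0.05 in limma, 5, 8, 7 and 6 passed in Ts6, Ts8, Ts11 and Ts15. The called factors were Pes1, a 60S assembly factor (-0.47 in Ts6, SE 0.11), Nop56, a core protein of box C/D snoRNPs (-0.52 in Ts11, SE 0.13), and Polr1a, the largest subunit of RNA polymerase I (-0.61 in Ts15, SE 0.10).

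Of 14 tested genes for chaperones of ribosomal proteins and for ribosome quality control, 0 were called in any line in limma, and 1, 2, 2 and 2 passed an unadjusted p under 0.05. Their medians were 0.03, 0.13, 0.14 and 0.0079 in Ts6, Ts8, Ts11 and Ts15. Of 17 growth signalling genes, 1 rose and 1 fell in Ts11 and 0 were called in the 3 other lines, where 3, 3 and 5 passed an unadjusted p under 0.05 (Ts6, Ts8, Ts15). Rps6kb1, the kinase of ribosomal protein S6, is encoded on chromosome 11 and rose by 0.53 in Ts11 (SE 0.11, limma adjusted p = 0.030), and Akt1s1, an inhibitory partner of mTOR, fell by 0.49 in the same line. Myc, on chromosome 15, had 0.72 in Ts15 (SE 0.18, adjusted p = 0.052) and was not called. Of 14 genes for p53 and its targets, Perp fell in Ts6 (-0.83), Ccng1 rose in Ts11 (0.78) and Gtse1 rose in Ts15 (0.66). In Ts8, 0 were called and 4 passed an unadjusted p under 0.05 in limma. Perp is a p53 target of cell adhesion and death, and Ccng1 and Gtse1, encoded on chromosomes 11 and 15, feed back on p53. The medians of that list were 0.01, 0.30, 0.22 and 0.18, and Cdkn1a, the cell cycle inhibitor, had 0.29, 0.81, 0.89 and 0.42, each with an SE of 0.36.

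Of 77 tested mitochondrial ribosomal protein genes, which encode the separate ribosome of the organelle, 1 fell in Ts15 and 0 were called in the other lines, where 4 (Ts6), 14 (Ts8, all lower) and 5 (Ts11) passed an unadjusted p under 0.05 in limma. Mrpl35 had -1.14 in Ts15 (SE 0.13, limma adjusted p = 0.004), with levels of -1.94 and -1.98 in Ts15, against -0.78 and -0.86 in WT. The medians of the mitochondrial list were 0.02, -0.11, -0.03 and 0.07. All 5 paralogues outside the name rule (Rps15a-ps6, Rpl22l1, Rpl36al, Rps4l and Rpl7l1) were uncalled in every line in limma, with 1 passing an unadjusted p under 0.05 in Ts8 and 1 in Ts11, and Rps15a-ps6, placed on chromosome 11, had 0.56 in Ts11 (SE 0.15, adjusted p = 0.064). For all counts in these lists, by the adjusted or the unadjusted p, the shares of all genes were those given above for each line.

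The 5 genes outside the family whose levels over the 10 arrays were most like the median member profile had Pearson correlations of 0.947 to 0.953. Tcof1 (0.949) and Gm4130 were those with a gene symbol, and the other 3 carried clone or region names. These correlations describe 10 arrays that share the scaling of each array.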

How the data were processed

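Per the file headers, the deposited intensity values came from 1-colour Agilent arrays, with Agilent Feature Extraction 10.7.3.1 as the software recorded. It had detrended signals within an array, and probes had been placed on mm9. The authors' deposited series table held log2 values whose normalization is not given in the sources used here, and it served as an alternative. Each processed signal was divided by the 75th percentile of its array and put on a log2 scale, and spots of a probe were averaged. Of 55681 probes, those flagged on an array (176) or without a group in which both arrays were above background were left out, which left 43056. The brightest probe stood for a gene (28192 genes). The fit used limma 3.58.1 (R 4.3.3; all 10 arrays, 1 mean per group, 5 residual and 2.67 prior degrees of freedom, two-sided, Benjamini-Hochberg). Replicates were separate passages of 1 line, so p-values measure the spread between passages. On simulated data of the Ts6 comparison (28192 genes), 58 of 100 genes changed by 1 on the log2 scale and 85 of 100 changed by 2 were recovered. Python 3.11.15 (with numpy 2.4.6, pandas 2.3.3) built the tables, and matplotlib 3.10.9 the figures.

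The members, gene lists, tests and alternatives were chosen with earlier results of these data known. Some members entered counts and medians but are not reported here by name. Named genes were the members on chromosomes 6, 8, 11 and 15, called members, the 5 members with the largest range of group means, up to 4 genes per list and the 5 most alike genes; the Rpl30 probe called in Ts6, Rplp0, Rpl10l, Rps27l, Fau, Eif4b and Pabpc1 were described after their values were seen. Alternatives were quantile normalization, normexp (offset 50), the deposited table, the mean of all probes, no filter on dim probes, the 4 arrays compared alone, slide 1 alone, passage as a covariate, the replicate number as a block, and leaving out each array.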

Additional observations from a re-analysis of the deposited data

Results flagged for a closer look

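Some members differed between pairs of trisomic lines in the same limma fit over all genes, a test added after the data had been seen. Differences are in log2, the first line minus the second. Rpl3l, the muscle paralogue of Rpl3, was higher in Ts6 than in Ts11 (0.75) and Ts15 (0.86) and higher in Ts8 than in Ts11 (0.72) and Ts15 (0.83). Rpl14 was higher in Ts6 than in Ts8 (0.44) and lower in Ts8 than in Ts15 (-0.58), by the probe placed on chromosome 7. Rpl39l was lower in Ts6 (-0.72) and in Ts11 (-0.75) than in Ts15. Rplp0, the stalk anchor, was lower in Ts6 (-0.39), Ts8 (-0.53) and Ts11 (-0.54) than in Ts15. Rpl30, on chromosome 15, was lower in Ts6 than in Ts15 (-0.36). Rps4x was lower in Ts8 than in Ts15 (-0.39), and Rpl29 was lower in Ts11 than in Ts15 (-0.50). Adjusted p-values in limma lay between 0.0086 and 0.048. Differences from Ts15 cannot be told apart from slide. Of these 14 differences, 4 were called under quantile normalization and 4 in the authors' deposited table, in both cases the Rpl3l ones. Under quantile normalization Rplp0 had -0.22 (Ts6), -0.20 (Ts8) and -0.18 (Ts11) against Ts15, Rps4x -0.17, Rpl29 -0.15, Rpl30 -0.22 and Rpl14 0.34 (Ts6 against Ts8) and -0.36 (Ts8 against Ts15). In the authors' deposited table Rplp0 had -0.27, -0.20 and -0.13, Rps4x -0.15, Rpl29 -0.09, Rpl30 -0.26 and Rpl14 0.29 and -0.35. Rpl39l had -0.65 (Ts6) and -0.66 (Ts11) under quantile normalization and -0.68 and -0.60 in the deposited table. In fits that left out 1 array, the difference of Rpl3l between Ts6 and Ts15 was called in 10 of 10 (0.66 to 1.05), and the other 13 differences in 0 to 8 of 10. Rpl39l between Ts11 and Ts15 ranged from -1.03 to -0.46 in those fits.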

How the results depend on the processing

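Counts of called members were 0 to 2 per line, so 1 gene moved a count by more than 1.5 times. The call counts for Ts6 against WT were 2 with the mean of all probes (Rpl3l and Rpl30) and 0 with passage as a covariate, and 0 to 1 when 1 array was left out. For Ts8 they were 1 under quantile normalization, in the deposited values, with the mean of all probes and on slide 1 alone, and 0 with no filter on dim probes, the 4 arrays alone and passage, and 0 to 1 when 1 array was left out. For Ts11 they were 0 under quantile normalization, with no filter, the 4 arrays alone, slide 1 alone and passage, and 0 to 2 when 1 array was left out; the 1 member called in the deposited values was Rpl38 (0.49), and the 1 called with the mean of all probes was Rpl14 (-0.50) in place of Rps16. For Ts15 they were 0 to 1 when 1 array was left out (Rpl23a without WT replicate 1). For the mean of the lines the count was 1 on slide 1 alone, and 0 when any 1 array was left out. In the own line it was 1 with the mean of all probes (Rpl30) and 0 when any 1 array was left out.

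With the replicate number as a block, the counts were 1 for Ts6, 0 for Ts8, 1 for Ts11 and 0 for Ts15. The deviations of same-numbered arrays correlated between -0.10 and 0.39 over the 10 pairs of groups, over 0.1 in 2 pairs, so the numbers were not taken to pair the samples.

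Own-line differences near 0 changed sign under some settings, and none of those was called. With passage as a covariate they were -0.0082 (Rpl13), -0.026 (Rpl23), -0.071 (Rpl26) and -0.056 (Rpl38). With normexp they were 0.012 (Rpl23a) and -0.0049 (Rpl38). Under quantile normalization they were 0.184 (Rpl23a), 0.048 (Rpl27), 0.0898 (Rps27a) and -0.0042 (Rpl37), and in the deposited values 0.254, 0.113, 0.156 and -0.0020 for the same genes. On slide 1 alone Rpl23a had 0.060, and with the mean of all probes Rps27a had 0.054. When 1 array was left out, the ranges were -0.032 to 0.105 (Rpl23), -0.158 to 0.141 (Rpl23a), -0.025 to 0.087 (Rpl26), -0.208 to 0.0090 (Rpl27), -0.0050 to 0.058 (Rpl38), -0.122 to 0.0099 (Rps27a), 0.013 to 0.153 (Rpl13), 0.097 to 0.518 (Rpl8), 0.051 to 0.378 (Rpl37), 0.0998 to 0.331 (Rpl3), 0.202 to 0.343 (Rpl30) and 0.092 to 0.253 (Rpl32). The family median against WT moved with passage to -0.14 (Ts6), -0.24 (Ts8), -0.28 (Ts11) and -0.03 (Ts15). The cause of these changes was not tested.

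Limits: 2 arrays a group, Ts15 on a slide of its own, WT at later passages than most line samples, and probes shared with near-identical copies. Every member was well above background on every array.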
